A study of Homo sapiens with 10 samples.

Results

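The comparison described here is U87 cells at 6 h of dibutyryl cAMP (dbcAMP) against U87 cells at 0 h, across all genes. U87 is an established human glioblastoma line, and dbcAMP is a cell-permeable analogue of cyclic AMP. It uses 2 of the 10 libraries of a time course that also holds DBTRG-05MG, another established glioblastoma line. Each line was sampled at 0, 6, 12, 24 and 48 h of 1 mM dbcAMP, as the sample labels give it, with 1 library per line and time. The text on the whole series differs from the labels in dose and length of treatment, and the labels were followed. Of 20379 genes in the table, 11303 were kept, those that averaged 1 FPKM or more over the 5 U87 libraries. FPKM is the number of sequenced fragments per kilobase of transcript, scaled to library size. Each gene is described by the log2 ratio of (FPKM + 1) at 6 h to (FPKM + 1) at 0 h, which understates the difference of weakly expressed genes. With 1 library at each time there is no replicate check, and every value below is a size without a test. No untreated culture was sampled at 6 h, so dbcAMP and 6 h in culture cannot be told apart.

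Cyclic AMP releases the catalytic subunits of protein kinase A, which phosphorylate the transcription factor CREB. Phosphorylated CREB binds the cAMP response element (CRE) in promoters and turns on genes that include phosphodiesterases, the enzymes that break cAMP down again. In glioma cells dbcAMP is long known as an agent that slows growth and gives an astrocyte-like shape.

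By the size of 1 read among low values, the U87 libraries held about 10.4 M fragments at 6 h and 10.1 M at 0 h. A gene at 1 FPKM with a transcript of 1 kilobase therefore rests on about 10.4 fragments at 6 h and 10.1 at 0 h, so ratios of genes near the filter carry a large counting error. All 10 libraries lay between 8.87 and 10.4 M fragments. BCYRN1, a small noncoding RNA of neurons and tumours, took 10.1% of the summed FPKM at 6 h and 9.15% at 0 h. Glioma markers were in part present. VIM, the intermediate filament vimentin, stood at 5377 FPKM at 6 h, against 7246 FPKM at 0 h. CD44, the hyaluronan receptor, stood at 552 FPKM at 6 h, against 258 FPKM at 0 h. Astrocyte markers were in part absent, with GFAP at 0.0717 FPKM at 6 h, against 0.147 FPKM at 0 h, and S100B at 0 in all 5 U87 libraries. Other astrocyte genes were expressed, among them GJA1, connexin 43, at 32.2 FPKM at 6 h, against 36.6 FPKM at 0 h, and the glutamate transporter SLC1A3 at 15.4 FPKM at 6 h, against 3.74 FPKM at 0 h. SOX2, a marker of glioma stem cells, was at 0 in all 5 U87 libraries. Of 7 microglia markers, CD68 was high at 326 FPKM at 6 h, against 415 FPKM at 0 h, while the highest value of the other 6 in any U87 library was 1.10 FPKM, of CSF1R at 12 h. The summed level of 5 endothelial markers was 1.93 FPKM at 6 h and 2.51 FPKM at 0 h.

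At 6 h, 343 genes were at least 2-fold higher, which is 3.03% of those kept, and 301 were at least 2-fold lower, which is 2.66%. In these bulk libraries a larger share of responding cells and more RNA per cell cannot be told apart. The large differences lay on the higher side: 67 genes (0.593%) were at least 4-fold higher and 14 genes (0.124%) at least 4-fold lower. The middle of the distribution was close to even, with a median log2 ratio of -0.02 and quartiles of -0.31 and 0.27. In DBTRG-05MG over the same interval, 149 of 12424 genes (1.2%) were at least 2-fold higher and 111 (0.893%) at least 2-fold lower. The spread of the log2 ratios had an SD of 0.54 over genes in U87 and 0.38 in DBTRG-05MG. Among the 1242 genes with a mean of 1 to 2 FPKM, 3.86% were at least 2-fold higher and 3.3% at least 2-fold lower. Among the 660 genes with a mean of 100 FPKM or more, the shares were 3.79% higher and 1.06% lower. Lower genes were thus thinly represented at high level, whereas higher genes were not. Loci of small RNAs (microRNAs, small nucleolar RNAs and small nuclear RNAs) are captured poorly by poly(A) selection and size selection. They made up 9.62% of the 343 higher genes and 11% of the 301 lower genes, against 1.67% of all genes kept.

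**Figure D1:**
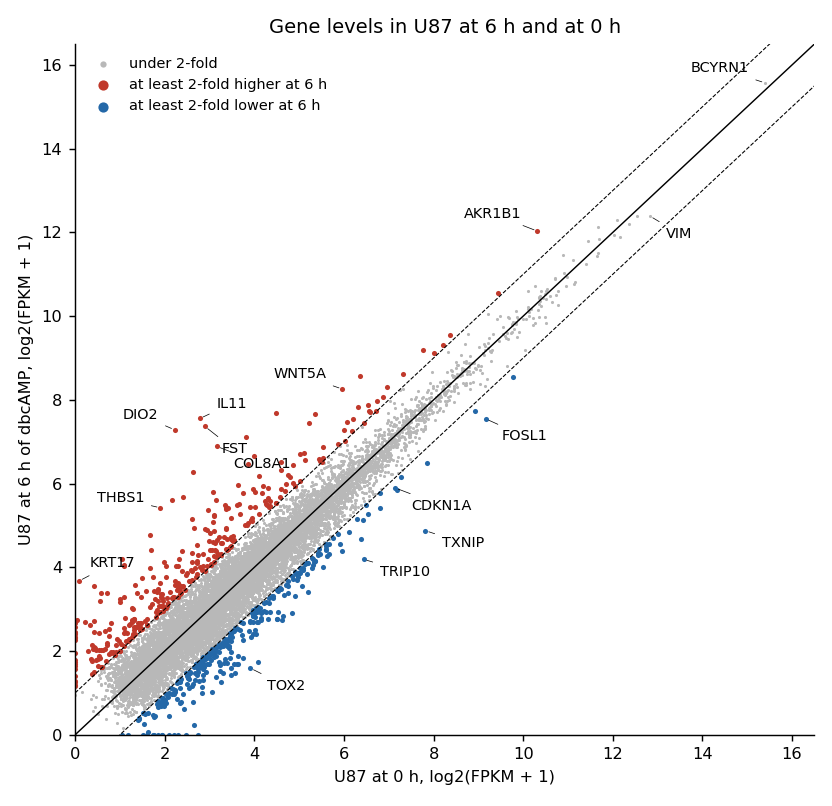
Level of each gene in U87 at 6 h of dbcAMP (vertical axis) and at 0 h (horizontal axis), both as log2(FPKM + 1), 1 library each. Points are 11279 of the genes kept, the solid line is equality and the dashed lines are 2-fold; the 343 higher genes (red) reach further from the line than the 301 lower genes (blue), with DIO2, IL11 and FST at its upper edge and TXNIP at its lower edge.

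Most of these genes had their most extreme level at 6 h. Of the 343 higher genes, 228 (66.5%) had their highest of the 5 values at 6 h, 75 at 12 h, 19 at 24 h and 21 at 48 h. Their median level was 3.95 FPKM at 0 h, 13.3 at 6 h, 10.8 at 12 h, 6.13 at 24 h and 4.86 at 48 h. Of the 301 lower genes, 225 (74.8%) had their lowest value at 6 h. Their median level was 9.41 FPKM at 0 h, 3.14 at 6 h, 4.58 at 12 h, 6.63 at 24 h and 6.53 at 48 h. Since both sets were chosen by their value at 6 h, an extreme there is in part built into the choice, and these counts are a description only.

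Among genes that averaged 5 FPKM or more, the highest ratio was that of DIO2, the deiodinase that makes active thyroid hormone inside cells. DIO2 stood at 155 FPKM at 6 h, against 3.68 FPKM at 0 h, a log2 ratio of 5.06. At the later times it stood at 51.7 FPKM at 12 h, 15.1 at 24 h and 6.83 at 48 h. IL11, a cytokine of the IL-6 family, came next with 187 FPKM at 6 h, against 5.90 FPKM at 0 h, a log2 ratio of 4.77. IL11 was still higher later, with 337 FPKM at 12 h and 329 FPKM at 24 h before 49.3 FPKM at 48 h. FST encodes follistatin, a secreted protein that binds and blocks activins and some BMPs. It stood at 164 FPKM at 6 h, against 6.45 FPKM at 0 h, a log2 ratio of 4.47.

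Several others of the 15 highest act outside the cell. COL8A1, a chain of collagen VIII, stood at 118 FPKM at 6 h, against 7.95 FPKM at 0 h. TNFRSF11B encodes osteoprotegerin, a soluble decoy receptor, and stood at 76.5 FPKM at 6 h, against 5.22 FPKM at 0 h. THBS1, thrombospondin-1, stood at 41.8 FPKM at 6 h, against 2.75 FPKM at 0 h. Carbohydrates of the matrix were represented by a pair of enzymes. HAS1, a hyaluronan synthase, stood at 48.1 FPKM at 6 h, against 3.50 FPKM at 0 h. CSGALNACT1, which starts chondroitin sulfate chains, stood at 26.4 FPKM at 6 h, against 2.18 FPKM at 0 h. PCSK1, a protease that cuts prohormones into active peptides, stood at 15.3 FPKM at 6 h, against 1.12 FPKM at 0 h. The rest of the 15 were PMEPA1, a feedback inhibitor of TGF-beta signalling, the chemokine CXCL3, the cytokine IL33, the membrane-anchored LYPD3, the keratin KRT17 and the noncoding LINC00161. KRT17 was almost silent outside a narrow window, with 0.0627 FPKM at 0 h, 11.8 at 6 h, 21.3 at 12 h, 0.201 at 24 h and 0.744 at 48 h. In all, 11 of the 15 had their highest value at 6 h and the other 4 at 12 h. The lowest of the 15 ratios was 2.95, and FGF7, just outside, had 2.80. In DBTRG-05MG, 7 of the 15 were under 1 FPKM at 0 h, and 3 (DIO2, IL11 and PMEPA1) were at least 2-fold higher there.

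Promoters holding the full CRE, TGACGTCA, are shown because CREB binds this element, which reads the same on both strands. Windows run from 250 bases before to 50 bases after the RefSeq start site, on GRCh38.p14, 5′ to 3′ on the strand of the gene, with the element in capitals. Of the 15 highest genes, 11 had a promoter in the RefSeq table, and 2 of these, HAS1 and PCSK1, held the element. It occurs in 1.98% of all 27305 promoters in the table and in 3.58% of the 8919 found for the genes kept. Coverage of the 15, of the genes kept and of the 343 was under the 80% set for reading a share, so none is read. The windows are chr19:51723942-51724241 on the minus strand for HAS1 and chr5:96433199-96433498 on the minus strand for PCSK1. The element begins 69 bases before the start site of HAS1 and 77 bases before that of PCSK1. SKIL, a repressor of SMAD signalling, and DUSP1, a phosphatase of MAP kinases, hold it as well and were added after their values were seen. SKIL stood at 8.19 FPKM at 6 h, against 2.59 FPKM at 0 h, and its window is chr3:170357465-170357764 on the plus strand. DUSP1 stood at 116.5 FPKM at 6 h, against 45.5 FPKM at 0 h, and its window is chr5:172771146-172771445 on the minus strand.
HAS1: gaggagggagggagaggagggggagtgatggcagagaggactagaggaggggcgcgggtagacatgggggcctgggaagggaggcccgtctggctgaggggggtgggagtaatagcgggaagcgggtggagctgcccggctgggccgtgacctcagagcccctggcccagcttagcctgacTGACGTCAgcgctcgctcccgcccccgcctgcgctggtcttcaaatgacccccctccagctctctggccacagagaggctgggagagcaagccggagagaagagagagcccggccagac
PCSK1: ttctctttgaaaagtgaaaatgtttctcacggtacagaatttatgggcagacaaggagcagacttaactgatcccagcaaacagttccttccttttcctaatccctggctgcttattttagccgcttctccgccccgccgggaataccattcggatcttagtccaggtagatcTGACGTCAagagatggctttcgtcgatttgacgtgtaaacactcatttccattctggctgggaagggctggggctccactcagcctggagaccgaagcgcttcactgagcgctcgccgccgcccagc
SKIL: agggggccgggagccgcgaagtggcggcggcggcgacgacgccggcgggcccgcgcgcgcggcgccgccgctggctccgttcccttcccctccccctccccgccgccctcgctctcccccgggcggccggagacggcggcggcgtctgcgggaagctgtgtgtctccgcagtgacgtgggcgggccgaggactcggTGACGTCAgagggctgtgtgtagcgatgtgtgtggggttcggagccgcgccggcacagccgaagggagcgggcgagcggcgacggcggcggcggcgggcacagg
DUSP1: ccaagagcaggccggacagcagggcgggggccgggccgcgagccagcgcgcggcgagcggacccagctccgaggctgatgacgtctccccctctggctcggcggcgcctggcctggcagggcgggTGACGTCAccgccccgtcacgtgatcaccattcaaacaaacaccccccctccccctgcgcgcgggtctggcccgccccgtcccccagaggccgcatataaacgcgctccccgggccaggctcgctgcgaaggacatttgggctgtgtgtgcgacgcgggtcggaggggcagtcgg
In 12 of the 241 promoters found for the 343 higher genes the element was present. A match is a run of letters and not a measured binding site.

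The lowest ratio was that of TXNIP, which binds thioredoxin and limits glucose uptake and whose transcription follows the supply of sugar phosphates. TXNIP stood at 28.3 FPKM at 6 h, against 225 FPKM at 0 h, a log2 ratio of -2.94. It stayed low at 42.6 FPKM at 12 h and 50.7 FPKM at 24 h and then stood at 1148 FPKM at 48 h, the highest of its 5 values. TRIP10, an adaptor between membranes and the actin regulator CDC42, was the other abundant gene among the 15 lowest. It stood at 17.3 FPKM at 6 h, against 85.6 FPKM at 0 h, and returned to 85.4 FPKM at 24 h. Transcription factors were a further group. TOX2, an HMG-box factor, stood at 2.02 FPKM at 6 h, against 14.02 FPKM at 0 h. FOXC2, a forkhead factor of mesenchyme, stood at 1.78 FPKM at 6 h, against 10.9 FPKM at 0 h. RFX8 stood at 2.34 FPKM at 6 h, against 15.9 FPKM at 0 h. ADCY8, an adenylyl cyclase that makes cAMP, stood at 2.54 FPKM at 6 h, against 12.4 FPKM at 0 h. RMI2, a partner of the BLM helicase, stood at 2.22 FPKM at 6 h, against 11.2 FPKM at 0 h. The remaining genes were GSDMB, RPSAP52, MIR25, ST8SIA5, SERINC4, ARHGAP22, MIR1914 and PLEKHF1, with log2 ratios from -2.0 to -1.77. Of the 15, 13 had their lowest value at 6 h and 10 their highest at 0 h. DNAJB5, just outside the 15, had a log2 ratio of -1.75. In DBTRG-05MG, 14 of the 15 passed the filter and TOX2 alone was at least 2-fold lower. MIR25 lies inside a replication gene and MIR1914 in a host gene as well, and reads of such short loci cannot be told apart from those of the hosts.

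**Figure D2:**
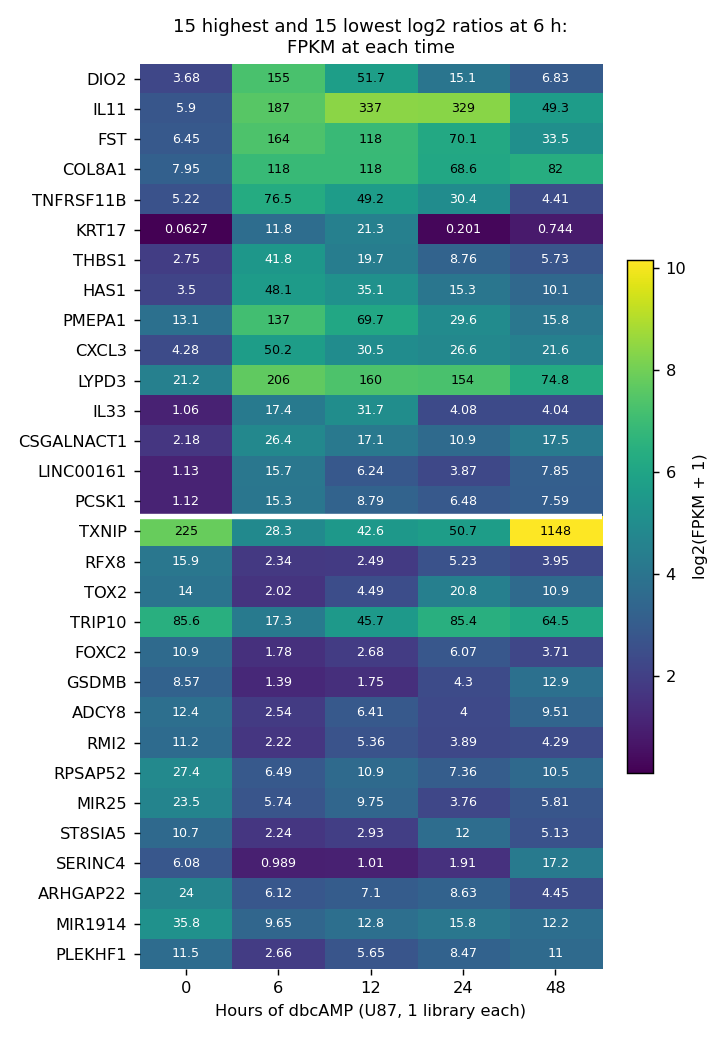
Level of the 15 highest and 15 lowest genes in U87 at each time of dbcAMP, 1 library each; numbers are FPKM and colour is log2(FPKM + 1). The upper block is brightest at 6 or 12 h, as with DIO2 at 155 FPKM at 6 h, and the lower block is darkest at 6 h in 13 of 15 genes, with TXNIP at 1148 FPKM at 48 h.

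Genes of the cAMP pathway itself were higher in part. Of 28 expressed cAMP and CREB target genes, 8 (28.6%) were at least 2-fold higher and 1 (3.57%) lower. Over all genes the shares were 3.03% and 2.66%. The median log2 ratio of the list was 0.61, against -0.02 over all genes. In DBTRG-05MG, 18 of 32 were at least 2-fold higher and none lower, with a median of 1.13. The 8 were DIO2, NR4A2, BDNF, PTGS2, PDE4B, PPARGC1A, PDE4D and DUSP1. NR4A2, an orphan nuclear receptor, stood at 9.48 FPKM at 6 h, against 0.643 FPKM at 0 h. BDNF, the neurotrophin, stood at 34.5 FPKM at 6 h, against 5.07 FPKM at 0 h. PPARGC1A, the coactivator of mitochondrial biogenesis, stood at 5.33 FPKM at 6 h, against 0.734 FPKM at 0 h, and lay at a log2 ratio of -0.25 in DBTRG-05MG. Members of the list differed from each other, PER1 being the 1 lower gene. NR4A1 stood at 2.16 FPKM at 6 h, against 2.31 FPKM at 0 h, while its log2 ratio in DBTRG-05MG was 2.57. CREM, whose short product ICER represses CRE promoters, stood at 4.22 FPKM at 6 h, against 2.57 FPKM at 0 h.

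In a list of protein kinase A subunits, phosphodiesterases, cyclases and regulators of CREB, 30 members were expressed, with a median of 0.00. At least 2-fold higher were 3 phosphodiesterases (10%, against 3.03% of all genes), and none was at least 2-fold lower. The list does not hold ADCY8, the cyclase among the 15 lowest, which had a log2 ratio of -1.93. PDE4B stood at 36.3 FPKM at 6 h, against 7.52 FPKM at 0 h, and PDE4B was also higher in DBTRG-05MG, with a log2 ratio of 2.05. PDE4D stood at 4.80 FPKM at 6 h, against 0.688 FPKM at 0 h. PDE7B, another cAMP-specific enzyme, stood at 3.12 FPKM at 6 h, against 0.312 FPKM at 0 h. ADCY7, an adenylyl cyclase, lay at 2.64 FPKM at 6 h, against 6.24 FPKM at 0 h, just short of 2-fold lower on the log2 scale at -0.99. The regulatory subunit PRKAR1A stood at 51.1 FPKM at 6 h, against 36.3 FPKM at 0 h.

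Of 25 AP-1, EGR and related immediate-early genes, 1 was at least 2-fold higher (4%) and 4 were at least 2-fold lower (16%), against 3.03% and 2.66% of all genes. By sign the list was close to all genes, with 12 members above 0 and 13 below, and its median was -0.15; in DBTRG-05MG 8 were at least 2-fold higher and none lower. FOSL1, the abundant AP-1 subunit of these cells, stood at 186 FPKM at 6 h, against 571 FPKM at 0 h. It stood at 346 FPKM at 12 h, 622 at 24 h and 114.0 at 48 h. FOSL2 stood at 26.9 FPKM at 6 h, against 57.4 FPKM at 0 h, while BATF3 and KLF6 were the other lower members. The higher one was MAFK, a small MAF protein that pairs with NRF2 and other bZIP factors, at 42.0 FPKM at 6 h, against 9.64 FPKM at 0 h. Of 17 genes of ERK feedback, 1 was at least 2-fold higher and 1 lower (5.88% each, against 3.03% and 2.66% of all genes). At this list size that is near the shares over all genes. By sign, 5 members lay above 0 and 12 below, with a median of -0.12. The higher one was DUSP1. The lower one was ETV4, a factor that reports ERK activity, with 6.01 FPKM at 6 h, against 15.2 FPKM at 0 h. Among 16 clock genes, PER1 and DBP were at least 2-fold lower (12.5%, against 2.66% of all genes) and none was at least 2-fold higher. The median was -0.17, against -0.18 in DBTRG-05MG. PER1, a repressor of the clock that carries CRE elements and is induced by cAMP in many cells, stood at 1.47 FPKM at 6 h, against 6.27 FPKM at 0 h. DBP, an output factor of the clock, stood at 2.06 FPKM at 6 h, against 6.31 FPKM at 0 h, and was lower in DBTRG-05MG as well, with a log2 ratio of -1.64.

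In the IL-6 family and its pathway, 3 of 19 genes (15.8%) were at least 2-fold higher, against 3.03% of all genes, with a median of 0.09. All 3 were ligands: IL11, IL6 and CLCF1. IL6 stood at 87.8 FPKM at 6 h, against 13.6 FPKM at 0 h. CLCF1 stood at 31.0 FPKM at 6 h, against 12.9 FPKM at 0 h. Receptors and the transducer differed less. IL6ST, the shared receptor chain gp130, stood at 60.9 FPKM at 6 h, against 44.6 FPKM at 0 h, and STAT3 stood at 18.1 FPKM at 6 h, against 16.9 FPKM at 0 h. SOCS1, an inhibitor of JAK kinases, was the 1 lower member, at 2.54 FPKM at 6 h, against 6.66 FPKM at 0 h.

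Of 20 NF-kappaB targets and chemokines, 5 were at least 2-fold higher (25%, against 3.03% of all genes) and none lower. The median was 0.40, against -0.23 in DBTRG-05MG. All but TNFAIP3 of the 5 were neutrophil-attracting CXC chemokines. CXCL3 stood at 50.2 FPKM at 6 h, against 4.28 FPKM at 0 h. IL8 stood at 201 FPKM at 6 h, against 40.2 FPKM at 0 h. CXCL1 stood at 8.50 FPKM at 6 h, against 0.994 FPKM at 0 h. NFKBIA, the inhibitor that NF-kappaB itself induces, stood at 81.6 FPKM at 6 h, against 85.1 FPKM at 0 h, close to even. Of 23 interleukin-1 family members and growth factors, 7 (30.4%) were at least 2-fold higher and 1 (4.35%) lower. Over all genes the shares were 3.03% and 2.66%. FGF7, a growth factor for epithelia, stood at 9.48 FPKM at 6 h, against 0.502 FPKM at 0 h. FGF2 stood at 27.4 FPKM at 6 h, against 7.10 FPKM at 0 h. IL1R1, the signalling receptor of interleukin-1, stood at 41.0 FPKM at 6 h, against 9.28 FPKM at 0 h. CSF1, the macrophage growth factor, was the lower one at 22.5 FPKM at 6 h, against 59.1 FPKM at 0 h. Prostaglandin E2 synthesis was represented at both of its inducible steps. PTGS2, the inducible cyclooxygenase, stood at 61.8 FPKM at 6 h, against 11.4 FPKM at 0 h. PTGES, the terminal synthase, stood at 37.3 FPKM at 6 h, against 7.51 FPKM at 0 h. With AKR1C1 these were the 3 at least 2-fold higher of 10 expressed prostaglandin genes (30%, against 3.03% of all genes). Of 20 interferon-stimulated genes none was at least 2-fold higher or lower, which at this list size is near the shares over all genes, and the median was 0.18. IFI44 stood at 7.04 FPKM at 6 h, against 14.99 FPKM at 0 h. Its log2 ratio of (FPKM + 1) was -0.99, just short of the limit for 2-fold lower.

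The list with the highest median was that of BMP targets and ID genes. Of 13 expressed members 12 lay above 0 and 7 were at least 2-fold higher (53.8%, against 3.03% of all genes). The median was 1.00, against 0.42 in DBTRG-05MG. The ligands BMP2 and BMP6 and the extracellular antagonist FST were among the 7. BMP2 stood at 23.6 FPKM at 6 h, against 6.96 FPKM at 0 h. BMP6 stood at 9.88 FPKM at 6 h, against 1.97 FPKM at 0 h. The ID genes encode inhibitors of basic helix-loop-helix factors and are direct BMP targets. ID3 stood at 212 FPKM at 6 h, against 93.2 FPKM at 0 h, and ID1 at 249.8 FPKM at 6 h, against 129 FPKM at 0 h.

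Of 24 TGF-beta targets and feedback genes, 6 were at least 2-fold higher (25%, against 3.03% of all genes) and none lower. The median was 0.62, against 0.32 in DBTRG-05MG. TGFBR1, the type I receptor, stood at 47.8 FPKM at 6 h, against 7.78 FPKM at 0 h. PMEPA1 stood at 137 FPKM at 6 h, against 13.1 FPKM at 0 h. CTGF, a secreted matrix protein, stood at 71.2 FPKM at 6 h, against 16.1 FPKM at 0 h. In the Notch and Wnt list, 5 of 17 were at least 2-fold higher (29.4%, against 3.03% of all genes) and none lower. DKK1, a secreted Wnt antagonist, stood at 54.5 FPKM at 6 h, against 7.38 FPKM at 0 h. WNT5A, a ligand of noncanonical Wnt signalling, stood at 305 FPKM at 6 h, against 61.5 FPKM at 0 h. RSPO3, which boosts Wnt receptors, stood at 4.51 FPKM at 6 h and was listed at 0 at 0 h.

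Matrix and cell-surface proteolysis followed a mixed pattern. Of 18 metalloproteases and plasminogen genes, 5 (27.8%) were at least 2-fold higher and 1 (5.56%) lower. Over all genes the shares were 3.03% and 2.66%. F3, the tissue factor that starts coagulation, stood at 99.3 FPKM at 6 h, against 15.02 FPKM at 0 h. SERPINE2, an inhibitor of thrombin and urokinase, stood at 378 FPKM at 6 h, against 80.9 FPKM at 0 h. PLAU, urokinase itself, stood at 585 FPKM at 6 h, against 216 FPKM at 0 h. MMP14, the membrane-bound metalloprotease, was the lower one at 69.8 FPKM at 6 h, against 154 FPKM at 0 h. Among 24 SRF targets and actin genes, 5 (20.8%) were at least 2-fold higher and none lower, with a median of 0.30, against 0.27 in DBTRG-05MG. VCL, vinculin of focal adhesions, stood at 174 FPKM at 6 h, against 86.2 FPKM at 0 h. FILIP1L stood at 33.1 FPKM at 6 h, against 7.42 FPKM at 0 h. Of 19 YAP and TEAD targets, F3, CTGF, CYR61 and AMOTL2 (21.1%) were at least 2-fold higher. Yet the median was -0.10 (0.08 with a filter at 5 FPKM) and 10 members lay below 0. Of 21 collagens and matrix proteins, COL8A1 and TNC were at least 2-fold higher (9.52%, against 3.03% of all genes) and none lower.

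**Figure D3:**
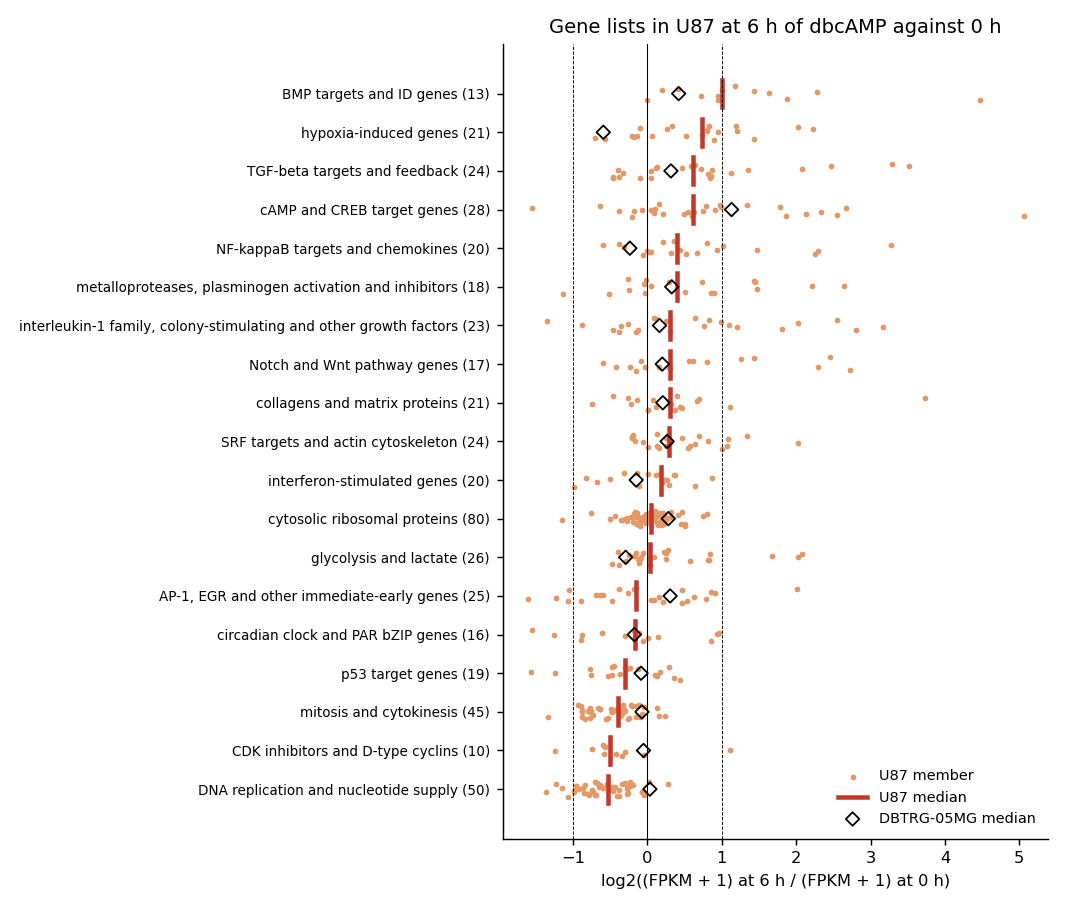
Log2 ratio of (FPKM + 1) at 6 h to (FPKM + 1) at 0 h for the expressed members of 19 gene lists in U87 (points), with the U87 median (red bar) and the DBTRG-05MG median (open diamond); the number of U87 members is in brackets and dashed lines mark 2-fold. BMP targets have the highest U87 median at 1.00 and DNA replication the lowest at -0.53, while hypoxia-induced genes have a U87 median of 0.73 and a DBTRG-05MG median of -0.59.

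Genes known from hypoxia had medians of opposite sign in the 2 lines. Of 21 expressed in U87, 15 lay above 0 and 6 below, 5 were at least 2-fold higher (23.8%, against 3.03% of all genes) and none was at least 2-fold lower, with a median of 0.73. In DBTRG-05MG 1 of 22 was at least 2-fold higher and 4 lower, with a median of -0.59. Gene by gene, 12 of the 21 kept in both lines (57.1%) were above 0 in U87 and below 0 in DBTRG-05MG, and none was the other way round. Over all genes kept in both lines these shares were 24.6% and 16.3%. The U87 ratio exceeded the DBTRG-05MG ratio in 20 of the 21 (95.2%), against 53.8% of all 10682 genes kept in both lines. ADM encodes adrenomedullin, a peptide that signals through cAMP. It stood at 173 FPKM at 6 h, against 36.2 FPKM at 0 h in U87, and at 11.6 FPKM at 6 h, against 21.1 FPKM at 0 h in DBTRG-05MG. VEGFA, the angiogenic growth factor, stood at 268 FPKM at 6 h, against 116 FPKM at 0 h in U87. In DBTRG-05MG it stood at 35.5 FPKM at 6 h, against 57.8 FPKM at 0 h. BNIP3, a mitophagy receptor induced by HIF-1, stood at 110.4 FPKM at 6 h, against 66.0 FPKM at 0 h in U87, and had a log2 ratio of -1.29 in DBTRG-05MG. CA9, a carbonic anhydrase and a close marker of HIF-1 activity, was among the 6 members below 0 in U87, with 20.4 FPKM at 6 h, against 30.9 FPKM at 0 h.

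Glucose handling showed single large values in a list that was close to even. Of 26 glycolysis and lactate genes, 3 were at least 2-fold higher (11.5%, against 3.03% of all genes) and none lower. The median was 0.04, against -0.29 in DBTRG-05MG. SLC2A1, the glucose transporter GLUT1, stood at 53.5 FPKM at 6 h, against 12.4 FPKM at 0 h. PFKFB3, whose product sets the activator of phosphofructokinase, stood at 42.7 FPKM at 6 h, against 9.38 FPKM at 0 h. PDK4, a kinase that inhibits pyruvate dehydrogenase, stood at 3.31 FPKM at 6 h, against 0.347 FPKM at 0 h. The enzymes of the pathway itself differed little. LDHA stood at 1111 FPKM at 6 h, against 917 FPKM at 0 h, and PGK1 stood at 421 FPKM at 6 h, against 397 FPKM at 0 h. All 25 kept in both lines lay below 0 in DBTRG-05MG, against 60.4% of all genes kept in both. Of these 25, 13 (52%) lay above 0 in U87, close to the 48.0% of all genes kept in U87. None could lie below 0 in U87 and above 0 in DBTRG-05MG, so the opposite signs reflect the DBTRG-05MG values alone.

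Cell division genes were lower together by small amounts. Of 50 genes of DNA replication and nucleotide supply, 48 lay below 0, against 52.0% of all genes kept, and the median log2 ratio was -0.53. At least 2-fold lower were 4 of the 50 (8%, against 2.66% of all genes), and none was at least 2-fold higher. POLD1, the catalytic subunit of polymerase delta, stood at 9.49 FPKM at 6 h, against 25.9 FPKM at 0 h. RFC5, of the clamp loader, stood at 10.5 FPKM at 6 h, against 23.0 FPKM at 0 h. WDHD1, which ties the helicase to polymerase alpha, stood at 2.08 FPKM at 6 h, against 6.19 FPKM at 0 h. PCNA, the sliding clamp, was close to even at 27.4 FPKM at 6 h, against 28.8 FPKM at 0 h. Of 45 genes of mitosis and cytokinesis, 42 lay below 0, with a median of -0.40. At least 2-fold lower was 1 (2.22%), a share near the 2.66% of all genes. That gene was BUB1, a kinase of the spindle checkpoint, at 19.0 FPKM at 6 h, against 49.6 FPKM at 0 h. CDC20, the activator of the anaphase-promoting complex, stood at 109 FPKM at 6 h, against 201 FPKM at 0 h. MKI67 stood at 38.2 FPKM at 6 h, against 53.7 FPKM at 0 h. In DBTRG-05MG the medians were 0.03 for replication and -0.07 for mitosis. The U87 ratio was below the DBTRG-05MG ratio in 44 of 50 replication genes (88%) and in 40 of 45 mitosis genes (88.9%), against 46.2% of all genes kept in both lines.

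**Figure D4:**
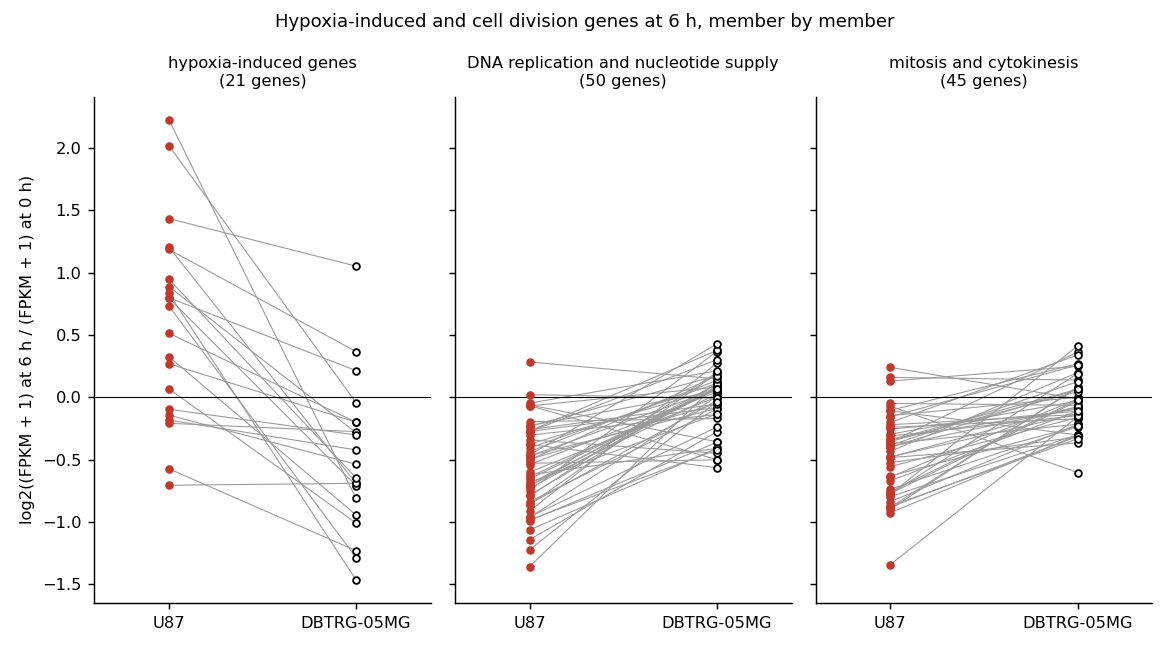
Log2 ratio of (FPKM + 1) at 6 h to (FPKM + 1) at 0 h for each member of 3 gene lists in U87 (filled) and DBTRG-05MG (open), with a line joining the same gene; members shown passed the filter in both lines. Lines fall from U87 to DBTRG-05MG in 20 of 21 hypoxia-induced genes, and rise in 44 of 50 replication and 40 of 45 mitosis genes.

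E2F factors drive many replication genes, so the promoters of TOX2, POLE2 and CDT1 are shown with matches to the E2F letters TTTCCCGC, TTTGGCGC and TTCCCGCC on either strand in capitals. The first and the last of these can overlap in a longer run. Of the 50 replication genes, 42 (84%) had a promoter in the table, and 25 of these (59.5%) held a match, against 4.61% of all 27305 promoters. The list was chosen by function, so this share describes the list and not the difference at 6 h. A match was present in 7.85% of the 8919 promoters found for the genes kept, which cover 79.0% of those genes. Of the 193 found for the 301 lower genes, 19 held a match. Coverage of these last 2 sets was under 80%, so neither share is read. POLE2, a subunit of polymerase epsilon, stood at 2.28 FPKM at 6 h, against 6.24 FPKM at 0 h. CDT1, which loads the helicase at origins, stood at 11.8 FPKM at 6 h, against 23.9 FPKM at 0 h, and holds 2 matches that share no base. Both were added after their values were seen, whereas TOX2 came from the 15 lowest, of which 5 had a promoter in the table and TOX2 and ARHGAP22 held a match. The windows are chr20:43915880-43916179 on the plus strand for TOX2, chr14:49688165-49688464 on the minus strand for POLE2 and chr16:88803539-88803838 on the plus strand for CDT1, on GRCh38.p14 from RefSeq.
TOX2: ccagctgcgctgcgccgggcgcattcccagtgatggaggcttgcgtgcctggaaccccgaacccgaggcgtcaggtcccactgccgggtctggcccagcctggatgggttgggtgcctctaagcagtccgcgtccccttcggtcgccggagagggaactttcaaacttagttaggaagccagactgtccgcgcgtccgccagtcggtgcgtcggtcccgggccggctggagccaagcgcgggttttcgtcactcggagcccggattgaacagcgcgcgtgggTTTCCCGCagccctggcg
POLE2: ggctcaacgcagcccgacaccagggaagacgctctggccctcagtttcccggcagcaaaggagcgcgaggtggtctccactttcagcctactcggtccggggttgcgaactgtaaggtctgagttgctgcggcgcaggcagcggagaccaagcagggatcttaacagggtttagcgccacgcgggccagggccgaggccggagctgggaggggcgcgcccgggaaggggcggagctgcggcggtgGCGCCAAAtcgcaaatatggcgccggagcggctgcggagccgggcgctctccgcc
CDT1: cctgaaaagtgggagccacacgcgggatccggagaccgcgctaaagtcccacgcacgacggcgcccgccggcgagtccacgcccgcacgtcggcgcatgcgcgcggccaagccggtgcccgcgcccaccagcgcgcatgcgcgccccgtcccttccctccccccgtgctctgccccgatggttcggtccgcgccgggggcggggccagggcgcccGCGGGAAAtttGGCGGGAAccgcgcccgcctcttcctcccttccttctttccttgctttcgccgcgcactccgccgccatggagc
The match begins 5 bases before the start site in POLE2 and spans it, lies before it in CDT1 and after it in TOX2.

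A further list held inhibitors of cyclin-dependent kinases (CDKs) and D-type cyclins, together with CDK4, CDK6, RB1, RBL1 and RBL2. Of its 10 expressed members, 9 lay below 0, against 52.0% of all genes kept, with a median of -0.50. Any link to the cell division genes was not tested. CDKN1A, the inhibitor p21, stood at 58.6 FPKM at 6 h, against 140.1 FPKM at 0 h. Its later values were 61.5 FPKM at 12 h, 225 at 24 h and 399.7 at 48 h, so 6 h was the lowest of the 5 times. CCND1, cyclin D1, stood at 75.01 FPKM at 6 h, against 101 FPKM at 0 h. CDK6, a kinase partner of cyclin D, was the 1 member above 0, at 8.86 FPKM at 6 h, against 3.58 FPKM at 0 h. Of 19 p53 targets, GADD45A and CDKN1A were at least 2-fold lower (10.5%, against 2.66% of all genes) and none was at least 2-fold higher. GADD45A, a growth arrest protein, stood at 19.99 FPKM at 6 h, against 61.2 FPKM at 0 h. Of 14 histone genes, 3 (21.4%) were at least 2-fold higher and 1 (7.14%) lower, against 3.03% and 2.66% of all genes. Their median was 0.32, or -0.31 with a filter at 5 FPKM. HIST1H2AC stood at 12.5 FPKM at 6 h, against 2.35 FPKM at 0 h, and H1F0, a linker histone of resting cells, stood at 17.5 FPKM at 6 h, against 38.6 FPKM at 0 h. Replication-dependent histone transcripts lack a poly(A) tail. RNAs that shift with handling and poly(A) capture stood beside them: of 11 such RNAs, 8 lay above 0 with a median of 0.17, RPPH1 was at least 2-fold higher at 4.53 FPKM at 6 h, against 1.16 FPKM at 0 h, and NEAT1 stood at 78.8 FPKM at 6 h, against 157 FPKM at 0 h. Their part in the histone values was not tested.

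Stress and metabolic lists had medians near 0 with a few members past 2-fold. Of 28 ATF4 targets, SLC7A5, ATF5 and SLC3A2 were at least 2-fold higher (10.7%, against 3.03% of all genes) and VLDLR at least 2-fold lower. SLC7A5 and SLC3A2 encode the 2 chains of an amino acid exchanger. SLC7A5 stood at 55.1 FPKM at 6 h, against 15.1 FPKM at 0 h, and SLC3A2 stood at 46.7 FPKM at 6 h, against 19.4 FPKM at 0 h. SLC1A3, the glutamate transporter of astrocytes with a log2 ratio of 1.79, was the 1 of 6 expressed astrocyte markers at least 2-fold higher, while the other 5 lay below 0. Of 20 ER chaperone genes DNAJB9 and DNAJC3 (10%) were at least 2-fold higher. In 21 heat shock genes CRYAB (4.76%) and in 22 sterol genes CYP51A1 (4.55%) passed 2-fold, shares near that of all genes. Of 6 expressed oligodendrocyte and precursor genes, OLIG2 and CSPG4 were at least 2-fold lower (33.3%, against 2.66% of all genes). All 6 lay below 0, with a median of -0.51. OLIG2 was faint, at 0.307 FPKM at 6 h, against 1.69 FPKM at 0 h. The housekeeping machines were close to even. Median log2 ratios were 0.05 for 80 cytosolic ribosomal proteins, 0.08 for 75 mitochondrial ribosomal proteins, 0.15 for 75 respiratory chain subunits and 0.05 for 37 proteasome subunits. Of these 4 lists, the 1 gene past 2-fold was RPL39L, a paralogue of RPL39, which was lower.

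In absolute level, the largest gains outside BCYRN1 were not those with the largest ratios. AKR1B1, the aldose reductase that makes sorbitol from glucose, stood at 4180 FPKM at 6 h, against 1275 FPKM at 0 h, a log2 ratio of 1.71. It stood at 4251 FPKM at 12 h, 1454 at 24 h and 5547 at 48 h, while in DBTRG-05MG its log2 ratio at 6 h was 0.03. TGFBI, a matrix protein induced by TGF-beta, stood at 1504 FPKM at 6 h, against 689 FPKM at 0 h. EEF1A1, the translation elongation factor, stood at 2793 FPKM at 6 h, against 1890 FPKM at 0 h. ACTB, beta-actin, stood at 4503 FPKM at 6 h, against 3274 FPKM at 0 h. The largest losses were in VIM, TMSB10, LGALS1, TUBA1B and TIMP1. TUBA1B, an alpha-tubulin, stood at 920.1 FPKM at 6 h, against 1457 FPKM at 0 h. LGALS1, galectin-1, stood at 5398 FPKM at 6 h, against 5957 FPKM at 0 h. None of the 5 losses reached 2-fold.

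Set beside DBTRG-05MG, the U87 response was shared in part. Of 10682 genes kept in both lines, 274 were at least 2-fold higher in U87 and 102 in DBTRG-05MG. The 37 higher in both were 13.5% of the U87 genes and 36.3% of the DBTRG-05MG genes, where 0.955% of all genes kept in both were higher in DBTRG-05MG. Of 261 genes lower in U87 and 67 lower in DBTRG-05MG, 17 were lower in both. They were 6.51% of the U87 genes and 25.4% of the DBTRG-05MG genes, where 0.627% of all genes kept in both were lower in DBTRG-05MG. These 17 included MIR138-1, MIR940, MIR4653, MIR4784, RNU6ATAC, SNORD32A and SNORD63, loci of small RNAs that are poorly captured. Loci of this kind among the 37 higher in both were MIR27B, MIR4519, SNORD87 and SNORD99. The shared higher genes included IL11, IL6, DIO2, NR4A2, BDNF, PDE4B, PDE4D, DUSP1, MAFK, PTGES, SLC7A5, BMP6 and PMEPA1. IL11 was nearly equal, with a log2 ratio of 4.77 in U87 and 4.79 in DBTRG-05MG. IL6 had a log2 ratio of 2.61 in U87 and 2.41 in DBTRG-05MG. DUSP1 had the lower ratio in U87, with 1.34 in U87 and 3.30 in DBTRG-05MG. A further 69 of the U87 higher genes did not pass the filter in DBTRG-05MG and so were not compared.

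Genes with the largest excess of the U87 log2 ratio over that of DBTRG-05MG, among those averaging 5 FPKM or more in each line, were FST, COL8A1, F3, ADM, THBS1, CXCL3, CXCL1 and DIO2. FST had a log2 ratio of 4.47 in U87 and 0.45 in DBTRG-05MG. COL8A1 had 3.73 in U87 and -0.26 in DBTRG-05MG. F3 had 2.65 in U87 and -0.43 in DBTRG-05MG. THBS1 started from different levels, since it stood at 41.8 FPKM at 6 h, against 2.75 FPKM at 0 h in U87, and at 459 FPKM at 6 h, against 265 FPKM at 0 h in DBTRG-05MG. At the other end stood TXNIP, FOXC2, MIR25, DUSP1, KCNC4, SNORD17, PMP22 and TSPYL4. PMP22, a myelin membrane protein, stood at 32.4 FPKM at 6 h, against 54.1 FPKM at 0 h in U87, and at 208 FPKM at 6 h, against 97.9 FPKM at 0 h in DBTRG-05MG. The Pearson correlation of the log2 ratios across the 10682 genes was 0.32, a description over genes that are not independent.

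**Figure D5:**
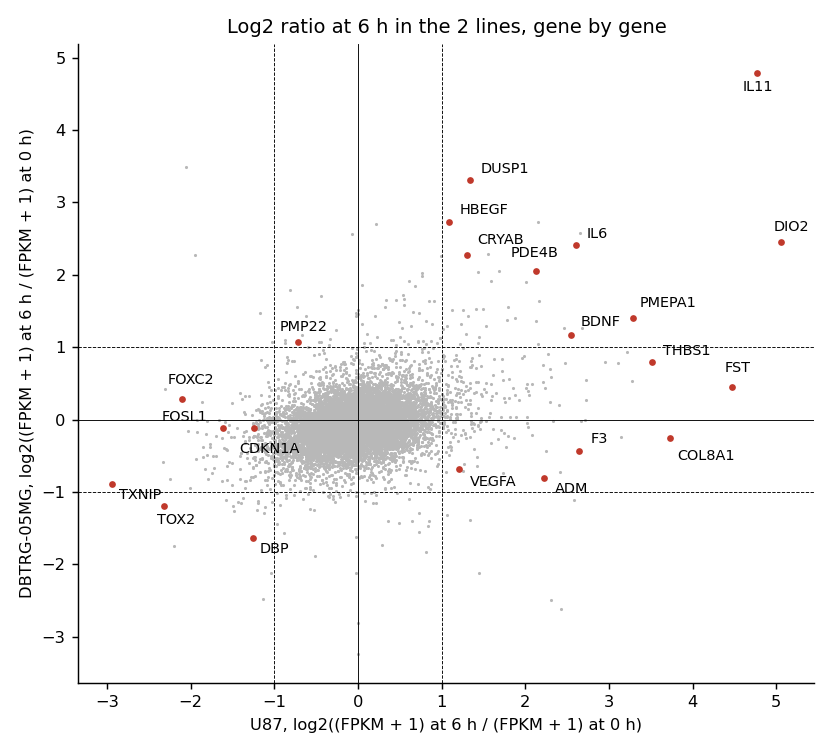
Log2 ratio of (FPKM + 1) at 6 h to (FPKM + 1) at 0 h in U87 (horizontal) and in DBTRG-05MG (vertical) for genes kept in both lines, 1 library per line and time; dashed lines mark 2-fold. IL11, DIO2 and IL6 lie high on both axes, FST, COL8A1 and F3 lie far along the U87 axis and near 0 in DBTRG-05MG, and VEGFA and ADM lie above 0 in U87 and below 0 in DBTRG-05MG.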

How the data were processed

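Poly(A) RNA of 2 glioblastoma lines was sequenced at 5 times, with 1 library each. Per the submitters' processing notes, HISAT, Bowtie2 and RSEM were used with the human build hg38; versions are not given in the sources used here. The deposited values, made by the authors, were read as FPKM. The unit is not stated and was inferred from steps of 1 read among low values scaled by transcript length, which also gave the depth. These steps were only partly clean, with 52.7% of low values at 6 h and 60% at 0 h within 0.05 of a whole read in U87, so depth is approximate. A value of 0.002 stands for 0. Spreadsheet software had turned 25 symbols into dates, and these were not named.

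Log2 ratios of (FPKM + 1) were computed for genes that averaged 1 FPKM or more across a line's 5 libraries, and a gene at a log2 ratio of 1 or more in size was counted as at least 2-fold. The calculation was tested on simulated data. Named genes are the 15 highest and 15 lowest ratios among genes averaging 5 FPKM or more, the 5 largest gains and losses in FPKM, up to 4 members of each gene list with the largest ratio in size, and the 8 genes at each end of the difference between the lines. Other genes named were chosen after their values were seen, mostly to complete a small count or to show a known member of a list. The comparison, the lists and the rule were chosen with earlier results of these data known. A few genes under this rule are left out here. Many lists share members. Alternatives were the pseudocount, the filter and the scaling of libraries. Symbols were matched to RefSeq for 19534 of 20379 genes. Python 3.11.15, numpy 2.4.6, pandas 2.3.3 and matplotlib 3.10.9 were used.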

Additional observations from a re-analysis of the deposited data

Results flagged for a closer look

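A pair of lists met the rule for opposite medians in the 2 lines, which asked for at least 0.2 in size relative to all genes in each line. Hypoxia-induced genes had a median log2 ratio at 6 h of 0.73 in U87 and -0.59 in DBTRG-05MG. Receptor kinases of glioma and their ligands had a median of -0.23 in U87 and 0.21 in DBTRG-05MG. In U87, EPHA4 was the 1 gene of 15 at least 2-fold higher (6.67%, against 3.03% of all genes), and none was lower. The U87 median of this list was -0.087 with a pseudocount of 5 and -0.083 without a filter, too small in size to meet the rule. With 1 library per line and time neither difference was tested. No gene named by rule was at least 2-fold higher in one line and at least 2-fold lower in the other.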

How the results depend on the processing

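The counts at 2-fold depended on the pseudocount, the filter and the scale. The 343 higher genes became 531 with a pseudocount of 0.1, 146 with a pseudocount of 5, 215 with a filter at a mean of 5 FPKM and 522 with each library scaled to a sum of 1 M without BCYRN1. They became 473 with each library scaled to a sum of 1 M. The 301 lower genes became 563, 63, 177 and 518 in the same order, and 507 with each library scaled to a sum of 1 M. A smaller pseudocount or a larger scale counts more weakly expressed genes by construction. The 37 genes higher in both lines became 60, 19, 22 and 60 in that order, and 56 with each library scaled to a sum of 1 M. The 17 lower in both became 47, 0, 4 and 48 in that order, 43 with each library scaled to a sum of 1 M, and 27 without a filter.

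Of the list medians, 9 changed sign under an alternative; histone genes (-0.306) and YAP targets (0.075) did so with a filter at 5 FPKM, and the other 7 went no lower than -0.068. A pseudocount of 5 took the cAMP targets to 0.356. A filter at 5 FPKM took NF-kappaB targets from 0.401 to 0.665, growth factors from 0.308 to 0.735 and proteases from 0.399 to 0.042. Leaving out the filter took the BMP list from 1.002 to 0.727 and proteases from 0.399 to 0.089. It took amino acid transporters from 0.309 to 0.057 and Notch and Wnt genes from 0.308 to -0.022. Among cell type markers, those of oligodendrocytes went from -0.514 to -0.049, of microglia from -0.349 to 0.000 and of endothelium from -0.279 to -0.001. Scaling without BCYRN1 took histone genes to 0.571. The hypoxia median ran from 0.573 to 0.754 and that of DNA replication from -0.613 to -0.445. The 112 named genes at least 2-fold apart kept their direction under each alternative that gave a value, and 76 were still at least 2-fold apart with a pseudocount of 5. No paired analysis was possible because there is 1 library for each line and time. With 1 library per time, spread between cultures is unknown, and no replicate could be left out. At about 10 fragments per FPKM and kilobase, ratios of genes near 1 FPKM are little resolved.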

Other observations

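Of the genes kept in both lines, 6 higher and 4 lower in U87 were at least 2-fold apart in opposite directions in the 2 lines at 6 h. All but PLA2G2A were loci of small RNAs. PLA2G2A, a secreted phospholipase, stood at 1.68 FPKM at 6 h, against 10.1 FPKM at 0 h in U87, and at 10.2 FPKM at 6 h in DBTRG-05MG, where it was listed at 0 at 0 h. Of the genes at least 2-fold higher in U87 and kept in both lines, 72.6% lay above 0 in DBTRG-05MG, against 39.5% of all genes kept in both. Of those at least 2-fold lower in U87, 79.3% lay below 0 in DBTRG-05MG, against 60.4% of all.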
